A study of Mus musculus with 14 samples.

Results

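Collagen genes were taken from the deposited gene tables as the protein-coding genes whose symbol has the form Col, a number, the letter a and a number. There were 44 of them among 54532 listed genes: 11 fibrillar, 8 of the basement membrane and 25 others. They were read in bulk RNA-seq of tumours grown from 4T1, a mouse mammary carcinoma line used as a model of triple-negative breast cancer. Each mouse received 1000000 cells under the skin of the mammary area. Injections into the abdomen began on day 9, when tumours measured about 100 mm3, and were given to all groups in 3 cycles at intervals of 6 days; harvest followed on day 3 after the final cycle. The vehicle group (PBS, 4 libraries) received phosphate-buffered saline, the CTX100 group (5 libraries) 100 mg/kg of cyclophosphamide, an alkylating cytotoxic drug, and the CTX140 group (5 libraries) 140 mg/kg. Strain, sex and age are not stated in the labels. Nor do these tie libraries to individual mice, so the p-values below speak of the spread between libraries, which may be technical. In bulk tumour RNA, fewer cells of a type and less RNA per cell cannot be told apart.

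Collagens are proteins of 3 chains wound into a triple helix, and most are laid down outside the cell. Fibrillar collagens (types I, II, III, V, XI, XXIV and XXVII) form the fibres that give tissue its tensile strength, and in tumours they are made mainly by fibroblasts. Type IV collagen forms the sheet-like network of basement membranes under epithelium and around vessels and fat cells, where types XV and XVIII are also bound. The remaining types bind to fibril surfaces, form beaded filaments, short-chain networks or anchoring fibrils, or span the cell membrane.

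The promoter stretches of 3 collagen genes are shown because these genes differed from PBS in both directions: Col3a1 was higher in CTX140 and in CTX100 tumours, and Col18a1 and Col16a1 were the genes lower in CTX140 tumours. They are RefSeq sequences of build GRCm38.p6, read 5′ to 3′ on the gene's strand, and end before the annotated start of the gene. Capitals mark matches to 3 motifs, searched on both strands: CCAAT, the core of the CCAAT box; GGGCGG, the core of the GC box; and TATAAA, the core of the TATA box. No printed matches overlap.
Col3a1, plus strand, chr1:45311288-45311537: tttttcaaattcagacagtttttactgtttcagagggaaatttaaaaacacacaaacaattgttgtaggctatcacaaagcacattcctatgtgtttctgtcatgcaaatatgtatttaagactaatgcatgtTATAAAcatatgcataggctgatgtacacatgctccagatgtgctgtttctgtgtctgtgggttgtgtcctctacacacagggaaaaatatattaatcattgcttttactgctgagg
Col18a1, minus strand, chr10:77166549-77166780: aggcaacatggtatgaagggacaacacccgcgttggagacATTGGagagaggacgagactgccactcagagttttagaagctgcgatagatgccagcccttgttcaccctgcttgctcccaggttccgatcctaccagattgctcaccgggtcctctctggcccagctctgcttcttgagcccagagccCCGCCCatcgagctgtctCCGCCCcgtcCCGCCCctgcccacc
Col16a1, plus strand, chr4:130047590-130047839: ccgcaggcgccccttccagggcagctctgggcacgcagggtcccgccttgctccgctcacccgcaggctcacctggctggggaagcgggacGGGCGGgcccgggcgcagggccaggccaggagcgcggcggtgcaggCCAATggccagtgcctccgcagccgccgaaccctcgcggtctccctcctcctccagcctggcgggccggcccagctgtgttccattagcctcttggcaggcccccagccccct
The Col3a1 stretch held 1 TATAAA match and none of the other motifs. Those of Col18a1 and Col16a1 each held CCAAT and GGGCGG, with 3 GGGCGG matches in Col18a1. Among 27025 mouse promoters in windows of 250 bases, 34.5% held CCAAT, 32.9% GGGCGG and 13.0% TATAAA; in windows of 232 bases, the length printed for Col18a1, these shares were 33.0%, 30.2% and 12.4%. Of the 35 collagen genes with a RefSeq promoter entry, 12 held CCAAT, 21 GGGCGG and 5 TATAAA. Of the 12 among them called higher in CTX140 than in PBS, 4 held CCAAT, 9 GGGCGG and 2 TATAAA. Of the 15 tested but not called, these numbers were 5, 8 and 2. Col3a1, without GGGCGG, thus differed from most of the genes called higher. A match describes these letters and is not a measured binding site.

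Of the 44 collagen genes, 34 passed the filter on low counts and were tested among 15360 genes with edgeR's quasi-likelihood test, called at a Benjamini-Hochberg adjusted p under 0.05. The smallest library held 14.4 and the largest 19.3 times 1000000 counts. Levels of 1 gene are given in CPM, its counts per 1000000 after TMM scaling of library sizes, and levels of different genes are compared in FPKM, which divides by gene length. Among the tested genes, 4 (Col6a5, Col9a2, Col11a1 and Col8a2) lay below the filter's level of 0.618 CPM in every PBS library. They passed through treated libraries, so they could enter the test only by being higher there. The filter asks for as many libraries at this level as the smallest group holds. Col17a1, Col28a1, Col23a1, Col6a4, Col6a6, Col24a1 and Col13a1 fell below it in at least 1 PBS library, so PBS libraries alone could not have passed them. The 10 untested genes (Col9a1, Col10a1, Col2a1, Col4a3, Col4a4, Col4a6, Col25a1, Col22a1, Col26a1 and Col19a1) held between 2 (Col19a1) and 123 counts (Col9a1) over the 14 libraries, and none exceeded 3.18 CPM in any library. Col22a1 had 16 counts in CTX140 and 0 in PBS, at least 4.09-fold higher against a floor of 3 counts over the PBS group, but 11 of the 16 were in CTX140 4, and without that library the bound was 1.55-fold.

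The fibrillar share of collagen transcripts was higher at each higher dose. With SDs over the 4 PBS, 5 CTX100 and 5 CTX140 libraries, the 11 fibrillar genes summed to 99.1 ± 32.9 FPKM in PBS tumours, 191 ± 52.4 FPKM at the lower dose and 396 ± 174 FPKM at the higher dose. The 8 basement membrane genes summed to 130 ± 11.5 FPKM in PBS, 124 ± 21.7 in CTX100 and 105 ± 9.39 in CTX140, and the 25 others to 79.3 ± 11.6, 82.8 ± 13.2 and 93.8 ± 14.7 FPKM. Fibrillar genes thus made up 31.7 ± 6.33% of collagen FPKM in PBS, 47.5 ± 4.57% in CTX100 and 64.8 ± 6.78% in CTX140. The libraries ran from 24.5 to 39.4%, from 43.0 to 53.9% and from 56.8 to 75.4% in that order, so the groups did not overlap; no test was run on these shares. The basement membrane share was 42.5 ± 5.18%, 31.5 ± 3.00% and 18.8 ± 4.59% in the same order of dose. All collagen genes together took 0.240 ± 0.053% of counts in PBS, 0.327 ± 0.078% in CTX100 and 0.497 ± 0.156% in CTX140. The library CTX140 2 was the highest at 0.744%, and the other CTX140 libraries reached 0.347 to 0.534%.

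**Figure D1:**
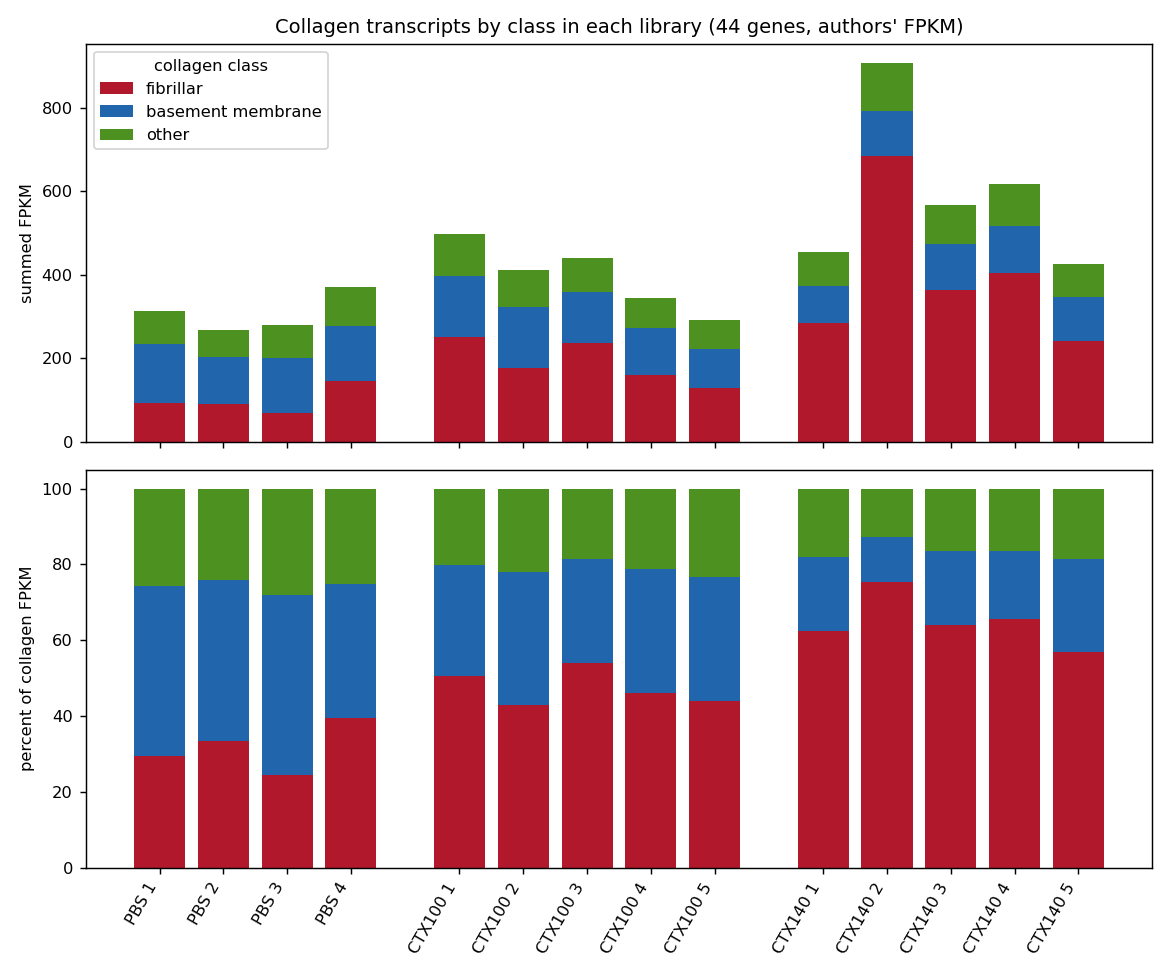
Summed FPKM of collagen genes (top, linear axis) and percent of collagen FPKM (bottom) in each of the 14 libraries, stacked by class. The fibrillar part is 56.8 to 75.4% in CTX140 libraries and 24.5 to 39.4% in PBS libraries, while the summed basement membrane level changes less.

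The order of the genes changed with it. In PBS tumours the highest collagen levels were those of Col18a1 at 51.6 ± 9.69 FPKM (SD, n = 4) and Col4a1 at 49.5 ± 6.92, ahead of Col1a1 at 36.4 ± 17.3 and Col3a1 at 28.4 ± 7.60. Col18a1 and Col4a1 did not differ beyond their spread, and their ratio within a PBS library ran from 0.718 to 1.47. In CTX100 tumours Col3a1 (68.7 ± 20.9 FPKM, n = 5) and Col1a1 (65.5 ± 22.9) stood above Col4a1 (49.5 ± 9.26) and Col18a1 (42.1 ± 3.70), and the SDs of Col3a1 and Col1a1 overlapped with that of Col4a1. In CTX140 tumours Col3a1 reached 166 ± 73.7 FPKM, Col1a1 129 ± 58.9 and Col1a2 61.9 ± 29.4 (n = 5), before Col4a1 at 41.9 ± 4.99 and Col18a1 at 31.8 ± 6.94. The SDs of Col3a1 and Col1a1 overlapped, but Col3a1 was the higher in every CTX140 library, at 1.16 to 1.46 times Col1a1 in FPKM. This order and the class shares of FPKM depend on the listed lengths, such as 9816 bases for Col3a1 and 7464 for Col4a1. In CPM, the PBS means were 280 for Col3a1 and 370 for Col4a1.

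The 4 genes below the filter's level in every PBS library were left aside. Of the other 30 tested collagen genes, 12 were called higher in CTX140 than in PBS and 2 lower. Over all genes tested, 11.1% were called higher and 10.1% lower. The median log2 fold change was 0.82 over these 30 collagen genes and 0.02 over all genes tested. By class, 5 of 9 fibrillar genes were called higher (median 1.22). Of 5 basement membrane genes, 1 was called lower and 0 higher by edgeR (median -0.04); 1 was higher at an unadjusted p under 0.05, and DESeq2 called 1 higher. Of 16 other collagens, 7 were called higher and 1 lower (median 0.98). Among these 7 were Col17a1, Col28a1, Col23a1 and Col6a4, which could not have passed the filter without treated libraries. All CTX140 libraries lay above all PBS libraries for 10 of the 30 genes and below them for 2, against 7.34% and 6.91% of all genes tested. Without the library CTX140 2, 10 of 29 tested were called higher and 2 lower, against 1362 and 1189 of all 15202 genes in that fit. With only the CTX140 and PBS libraries in the fit, 9 were called higher and 2 lower, against 6.79% and 5.73% of all genes, and Col27a1, Col23a1 and Col6a4 lost their calls. Over all 34 tested genes the counts were 16 higher and 2 lower, of which the 4 scarce genes could not have gone the other way.

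**Figure D2:**
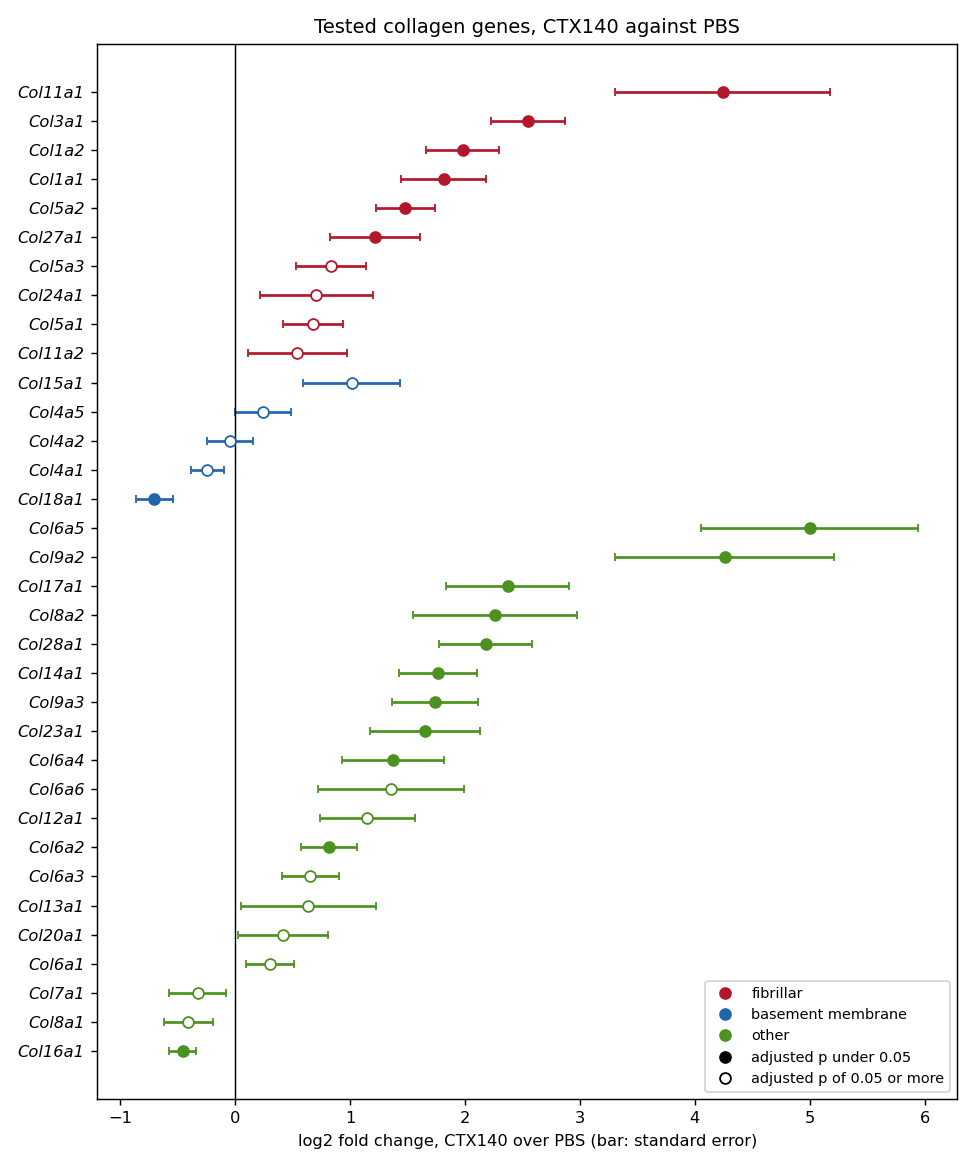
Fitted log2 fold change of CTX140 over PBS with its standard error for the 34 tested collagen genes, grouped by class, with filled points for an adjusted p under 0.05. All 10 fibrillar genes lie right of 0, and the called points left of 0 are Col18a1 and Col16a1. The points of Col11a1, Col9a2, Col6a5 and Col8a2 belong to genes below the filter's level in every PBS library.

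The chains of the fibres of skin and stroma, types I and III, held the highest values. Col3a1, the single chain of type III collagen (ENSMUSG00000026043, chr1:45311538-45349706 of mm10), stood at 259, 324, 182 and 353 CPM in the PBS libraries 1 to 4, at 812, 509, 967, 615 and 489 CPM in CTX100 1 to 5, and at 1108, 2791, 1595, 1701 and 973 CPM in CTX140 1 to 5. No library of one group fell within the range of another, and CTX140 2 was the highest of all. The margin between CTX100 and CTX140 was small, with CTX100 3 at 967 and CTX140 5 at 973 CPM. The log2 fold change of CTX140 over PBS was 2.55 ± 0.32 (SE; edgeR adjusted p = 0.000216), and it was 2.27 without CTX140 2.

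Col1a1 encodes the chain present in a pair of copies in type I collagen, the main protein of connective tissue (ENSMUSG00000001506, chr11:94936224-94953042). It had 219, 192, 144 and 406 CPM in PBS, 639.8, 442, 496, 341 and 243 CPM in CTX100, and 638, 1501, 730.5, 832 and 527 CPM in CTX140. Its CTX140 libraries all lay above the PBS libraries, whereas CTX100 overlapped with both groups, and PBS 4 was well above the other PBS libraries. The log2 fold change of CTX140 over PBS was 1.81 ± 0.37 (edgeR adjusted p = 0.00417).

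Col1a2, the other chain of type I collagen (chr6:4504814-4541544), showed 172, 167, 145 and 296 CPM in PBS, 479, 362, 437, 301 and 259 CPM in CTX100, and 590.2, 1386, 627, 781 and 464 CPM in CTX140. CTX140 was above every PBS library and its lowest library overlapped with CTX100. The log2 fold change of CTX140 over PBS was 1.98 ± 0.32 (edgeR adjusted p = 0.000867).

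Type V collagen co-assembles with type I and limits fibril width. Its chain gene Col5a2 had 54.7, 65.0, 62.7 and 79.7 CPM in PBS, 109, 129, 120.2, 85.4 and 81.3 CPM in CTX100, and 127, 319.8, 175, 175 and 117 CPM in CTX140. Both treated groups lay above PBS, and CTX140 2 stood far above the other CTX140 libraries. Col5a2 was called higher in CTX140 than in PBS at a log2 fold change of 1.48 ± 0.26 (edgeR adjusted p = 0.00146).

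Col5a1, the partner chain, had 71.8, 42.8, 54.4 and 93.9 CPM in PBS, 126, 93.6, 90.8, 65.1 and 63.5 CPM in CTX100, and 76.1, 138, 97.6, 134 and 78.7 CPM in CTX140. The groups overlapped, and the log2 fold change of CTX140 over PBS of 0.67 ± 0.26 was not called (edgeR adjusted p = 0.077). Col5a3, the remaining chain of type V, at 44.4 ± 16.2 CPM in CTX140 and 24.8 ± 9.67 CPM in PBS, likewise gave 0.83 ± 0.31 (edgeR adjusted p = 0.0663).

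Among the scarce fibrillar genes, Col27a1, of growth cartilage in mouse, was called higher with a log2 fold change of 1.22 ± 0.39 (edgeR adjusted p = 0.0358), at 4.86 CPM in CTX140 and 2.07 CPM in PBS on average; the call was lost without PBS 1, PBS 2, PBS 3, CTX140 1 or CTX140 3. Col11a1, a cartilage chain also made by activated fibroblasts, passed the filter only through treated libraries and is described without a test. It had 85 counts in CTX140 and 3 in PBS, a ratio of 21.7 after scaling, with a 95% counting interval of 7.19 to 107 that covers counting error only. Of the 85 counts, 43 were in CTX140 1, and without that library the ratio was 13.4. Col11a2, at 3.00 CPM in CTX140 and 2.06 CPM in PBS, and Col24a1, at 1.01 CPM in CTX140 and 0.603 CPM in PBS, were not called (0.54 ± 0.43 and 0.71 ± 0.49).

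Among basement membrane chains, Col4a1, the more abundant chain of the common type IV network (chr8:11198423-11312826), had 384, 332, 436 and 329.8 CPM in PBS, 456, 422, 364, 336 and 279 CPM in CTX100, and 257, 331, 328, 351 and 299 CPM in CTX140. The groups overlapped, and the log2 fold change of CTX140 over PBS was -0.24 ± 0.15 (edgeR adjusted p = 0.252).

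Col4a2, its partner chain, stood at 203, 128, 169 and 122 CPM in PBS, 221, 231, 173, 149 and 109.9 CPM in CTX100, and 136, 159, 166, 167 and 127 CPM in CTX140. The 3 groups overlapped, CTX100 having both the highest and the lowest library, and the log2 fold change of CTX140 over PBS was -0.04 ± 0.20 (edgeR adjusted p = 0.899). The scarcer type IV chain Col4a5, at 14.0 ± 3.69 CPM in CTX140 and 11.9 ± 4.88 CPM in PBS, gave 0.24 ± 0.24 and was not called either.

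Col18a1 encodes type XVIII collagen, a heparan sulfate proteoglycan of basement membranes whose cleaved end is endostatin (ENSMUSG00000001435, chr10:77052178-77166548). It was the basement membrane gene called lower in CTX140. It had 375, 329.7, 294 and 456 CPM in PBS, 315, 331, 289, 294 and 261 CPM in CTX100, and 166, 187, 241, 235 and 289 CPM in CTX140. Every CTX140 library lay below every PBS library, by a small margin between the highest CTX140 and the lowest PBS library, and CTX100 overlapped with both. The log2 fold change of CTX140 over PBS was -0.70 ± 0.16 (edgeR adjusted p = 0.00615). Slc19a1, on the opposite strand over part of Col18a1, held 4.40% as many counts, and reads of the overlap cannot be assigned without the strand setting.

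Col15a1, the relative of Col18a1 found where basement membrane meets fibres, ranged from 14.2 to 71.7 CPM in CTX140 and from 11.3 to 27.9 CPM in PBS. Its log2 fold change of 1.01 ± 0.42 was not called (edgeR adjusted p = 0.0978), with CTX140 1 and CTX140 2 the highest libraries.

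Fibril-associated collagens split. Col14a1, of mature fibril surfaces, ranged from 16.8 to 55.0 CPM in CTX140 and from 9.43 to 13.3 CPM in PBS, with no overlap and a log2 fold change of 1.77 ± 0.34 (edgeR adjusted p = 0.0029). The pseudogene Gm18787 on its opposite strand held 6.53% as many counts. Col12a1, which bridges fibrils in tissues under load, had 39.1, 41.3, 47.1 and 95.4 CPM in PBS, 82.5, 117, 83.0, 66.3 and 65.0 CPM in CTX100, and 62.1, 267, 114, 115 and 61.5 CPM in CTX140. CTX140 2 and PBS 4 stood apart from their own groups, the groups overlapped, and the log2 fold change of 1.15 ± 0.41 was not called (edgeR adjusted p = 0.0606).

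Col16a1, a fibril-associated collagen of small fibrils and cell surfaces, moved the other way. It had 112, 116, 114 and 129 CPM in PBS, 99.6, 93.4, 83.4, 92.8 and 79.9 CPM in CTX100, and 74.2, 71.7, 84.5, 109 and 88.8 CPM in CTX140 (chr4:130047840-130099283). The 4 PBS libraries were the highest of the 14. Its log2 fold change of CTX140 over PBS was -0.46 ± 0.12 (edgeR adjusted p = 0.0146). Col9a3 and Col9a2 are chains of the type IX collagen of cartilage fibrils. Col9a3 was called higher and ranged from 2.32 to 6.05 CPM in CTX140 and from 0.844 to 1.26 CPM in PBS (1.74 ± 0.37, edgeR adjusted p = 0.00452), and Tcfl5 on the opposite strand held 20.3% as many counts. Col9a2, which passed the filter only through treated libraries, had 137 counts in CTX140 and 5 in PBS. Of the 137, 77 were in CTX140 1, and without that library the CTX140 mean was 0.918 in place of 1.66 CPM. Col20a1, at 3.53 CPM in CTX140 and 2.64 CPM in PBS, was not called (0.41 ± 0.39), and the overlapping 9230112E08Rik held 110% as many counts.

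Type VI collagen forms beaded filaments around cells from chains of which Col6a1, Col6a2 and Col6a3 are the common ones. Col6a1 had 128, 63.8, 105 and 123 CPM in PBS, 163, 113, 126, 99.6 and 78.0 CPM in CTX100, and 114, 160.1, 133, 125 and 115 CPM in CTX140. Col6a2 had 63.1, 39.4, 49.0 and 65.0 CPM in PBS, 120.4, 77.2, 85.8, 58.9 and 53.1 CPM in CTX100, and 98.4, 128, 93.1, 94.1 and 62.2 CPM in CTX140. The groups overlapped for both. In CTX140 against PBS, Col6a2 was called higher (0.81 ± 0.24, edgeR adjusted p = 0.0269), whereas Col6a1 (0.31 ± 0.21, adjusted p = 0.314) was not. The call of Col6a2 was lost without PBS 2, PBS 3 or CTX140 2. Col6a3, at 60.2 ± 25.0 CPM in CTX140 and 38.3 ± 9.64 CPM in PBS, was not called (0.65 ± 0.25, edgeR adjusted p = 0.0717). Of the scarce alternative chains, Col6a4, at 2.31 CPM in CTX140 and 0.894 CPM in PBS, was called higher (1.37 ± 0.45), a call lost without PBS 1, PBS 3, PBS 4 or CTX140 1. Col6a6, at 0.930 CPM in CTX140 and 0.359 CPM in PBS, was not called (1.36 ± 0.63). Col6a5, which passed the filter only through treated libraries, had 226 counts in CTX140, from 0.856 to 5.87 CPM per library, and 5 counts in PBS, all in PBS 1. Col28a1, a related beaded collagen of peripheral nerve, ranged from 1.50 to 3.53 CPM in CTX140 and from 0.241 to 0.769 CPM in PBS (2.18 ± 0.40, edgeR adjusted p = 0.00181).

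Of the short-chain network collagens, Col8a1, of vessel walls and the cornea, had 92.1, 89.0, 126 and 88.1 CPM in PBS, 95.8, 133, 87.6, 83.9 and 103 CPM in CTX100, and 43.3, 67.0, 66.9, 106 and 89.9 CPM in CTX140 (-0.41 ± 0.21, edgeR adjusted p = 0.177). Col7a1, which anchors epithelium to the dermis, had 75.0, 95.2, 60.7 and 144 CPM in PBS, 78.2, 99.7, 55.3, 88.0 and 87.3 CPM in CTX100, and 62.3, 47.5, 88.3, 97.3 and 78.5 CPM in CTX140 (-0.33 ± 0.25, edgeR adjusted p = 0.364). For both genes CTX140 overlapped with PBS. Col8a2, far scarcer, also passed only through treated libraries. It ranged from 0.307 to 2.08 CPM in CTX140 and from 0 to 0.489 CPM in PBS, so the groups overlapped. Of the transmembrane collagens, Col17a1, of keratinocyte hemidesmosomes, ranged from 1.09 to 5.15 CPM in CTX140 and from 0.280 to 0.904 CPM in PBS (2.37 ± 0.54, edgeR adjusted p = 0.0063). Col23a1, at 2.74 CPM in CTX140 and 0.866 CPM in PBS, was called higher at 1.65 ± 0.48 (edgeR adjusted p = 0.0233), a call lost without PBS 1, PBS 2 or CTX140 2. Col13a1, at 0.676 CPM in CTX140 and 0.441 CPM in PBS, was not called (0.64 ± 0.59).

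**Figure D3:**
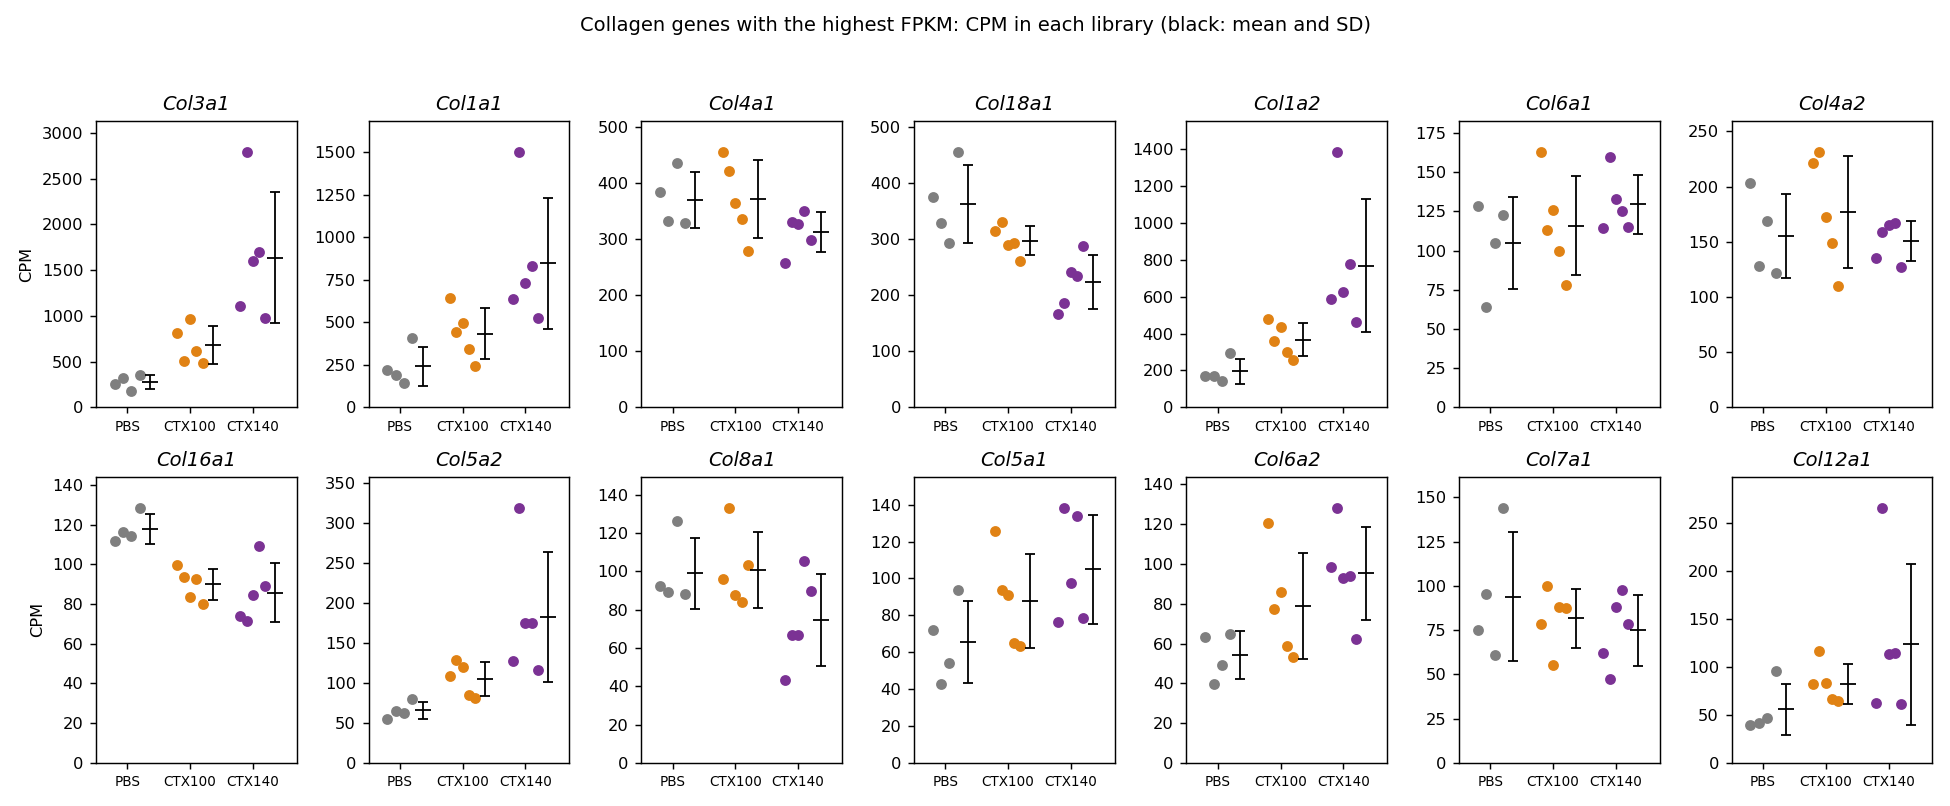
CPM (linear axes) of the 14 tested collagen genes with the highest mean FPKM, with 1 point per library and the mean and SD of each group in black. Col3a1, Col1a1, Col1a2 and Col5a2 climb from PBS through CTX100 to CTX140, with CTX140 2 the highest point, while Col18a1 and Col16a1 are lower in CTX140 than in every PBS library.

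In CTX100 against PBS, 1 of the 34 tested collagen genes, Col3a1, was called higher and 0 lower by edgeR's quasi-likelihood test, where 1.2% of all genes tested were called higher and 0.397% lower. At an unadjusted p under 0.05, 7 were higher and 1 lower, against 9.37% and 8.52% of all genes. Over the 30 genes without the 4 scarce ones, 5 were higher and 1 lower at that p. DESeq2 called 2 higher and 1 lower, against 3.42% and 2.04% of all genes. The log2 fold change of Col3a1 was 1.28 ± 0.31 (edgeR adjusted p = 0.0489), close to the threshold. It fell below the threshold in 10 of 14 fits that left out 1 library each, with adjusted p between 0.0220 and 0.167 over all 14 fits, and kept its call without PBS 2, CTX140 1, CTX140 2 or CTX140 5. Col1a1 (0.85 ± 0.36), Col1a2 (0.91 ± 0.30) and Col5a2 (0.68 ± 0.25) were not called, nor was Col16a1 (-0.39 ± 0.12, edgeR adjusted p = 0.107). CTX100 lay above PBS without overlap for 3 collagen genes (Col3a1, Col5a2 and Col11a1, the last passing the filter only through treated libraries) and below it for 1 (Col16a1), against 5.17% and 3.55% of all genes tested. The median log2 fold change was 0.33 over the 30 collagen genes without the 4 scarce ones and -0.01 over all genes tested.

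In CTX140 against CTX100, 3 of the 34 tested collagen genes were called higher, where 0.775% of all genes tested were, and 0 lower, where 0.475% were (edgeR). At an unadjusted p under 0.05, 15 were higher and 2 lower, against 13.1% and 9.27% of all genes. DESeq2 called 9 higher and 0 lower, against 5.36% and 2.78% of all genes. Over the 30 genes without the 4 scarce ones, 13 were higher and 2 lower unadjusted, and DESeq2 called 7 and 0. Col3a1 had a log2 fold change of 1.27 ± 0.28 (edgeR adjusted p = 0.0434), Col14a1 of 1.45 ± 0.31 (adjusted p = 0.0402) and Col9a3 of 1.84 ± 0.35 (adjusted p = 0.0262). Each lost its call in some fits that left out 1 library: 10 of 14 for Col3a1, 9 for Col14a1 and 6 for Col9a3. Col3a1 kept its call without PBS 2, PBS 3, CTX140 4 or CTX140 5, and Col14a1 without PBS 1, PBS 2, PBS 3, CTX140 4 or CTX140 5. Col9a3 lost its call without CTX100 1, CTX100 2, CTX100 3, CTX100 4, CTX140 2 or CTX140 3. Col1a1 (0.97 ± 0.33, adjusted p = 0.117), Col1a2 (1.07 ± 0.28, adjusted p = 0.0652) and Col18a1 (-0.41 ± 0.15, adjusted p = 0.128) were not called by edgeR. The groups did not overlap for 3 collagen genes, all higher in CTX140 (Col3a1, Col9a3 and Col28a1), against 2.33% of all genes tested that lay higher and 3.71% that lay lower. Group means ascended over the 3 doses for 22 of the 34 tested collagen genes, the 4 scarce ones among them, and descended for 3 (Col18a1, Col16a1 and Col7a1). The 3 comparisons share libraries, so their values are not independent of each other.

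Ratios of collagen genes within a library, which do not depend on the library total, were compared for 11 pairs in CTX140 against PBS with a two-sided exact permutation test. Of 12 planned pairs, Col11a1 over Col5a1 was left out, because Col11a1 had 0 counts in PBS 1 and PBS 3. Col3a1 relative to Col1a1 was 1.16, 1.24, 1.46, 1.37 and 1.23 (ratio of FPKM) in CTX140 and 0.791, 1.13, 0.846 and 0.580 in PBS. Col5a1 relative to Col1a1 was 0.0922, 0.0713, 0.103, 0.124 and 0.115 in CTX140 and 0.253, 0.172, 0.292 and 0.179 in PBS. Col12a1 relative to Col1a1 was 0.0419, 0.0765, 0.0670, 0.0595 and 0.0503 in CTX140 and 0.0767, 0.0928, 0.141 and 0.101 in PBS. For these 3 pairs the groups did not overlap, by the narrowest of margins for Col12a1. All 3 pairs share Col1a1 as the denominator, so they are not independent of each other. Each had p = 0.0159, the smallest that 5 against 4 libraries allow in this exact test, and an adjusted p of 0.0582 over the 11 pairs, so none passed after adjustment. The geometric mean ratio in CTX140 was 1.58, 0.455 and 0.575 times that in PBS for Col3a1, Col5a1 and Col12a1 over Col1a1.

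The chains of type I collagen kept a close ratio. Col1a1 over Col1a2 averaged 2.09 ± 0.08 in FPKM in CTX140 (SD, n = 5) and 2.26 ± 0.31 in PBS (n = 4, exact permutation p = 0.286). These values depend on the listed lengths, 6563 bases for Col1a1 and 12426 for Col1a2, and are not a measured ratio of molecules. In counts the median ratio was 1.08 in CTX140 and 1.21 in PBS. The comparison between groups does not depend on length. Col4a1 over Col4a2 averaged 1.85 ± 0.15 in CTX140 and 2.17 ± 0.33 in PBS (n = 5 and 4; exact p = 0.143). Col6a1 over Col6a2 averaged 2.67 ± 0.51 in CTX140 and 3.65 ± 0.43 in PBS (n = 5 and 4; exact p = 0.0317, adjusted p = 0.0873). In CTX140 against CTX100, Col5a1 over Col1a1 did not overlap between the groups, at 0.101 ± 0.021 in CTX140 and 0.161 ± 0.024 in CTX100 (n = 5 each; exact p = 0.00794, the smallest possible, adjusted p = 0.0952).

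**Figure D4:**
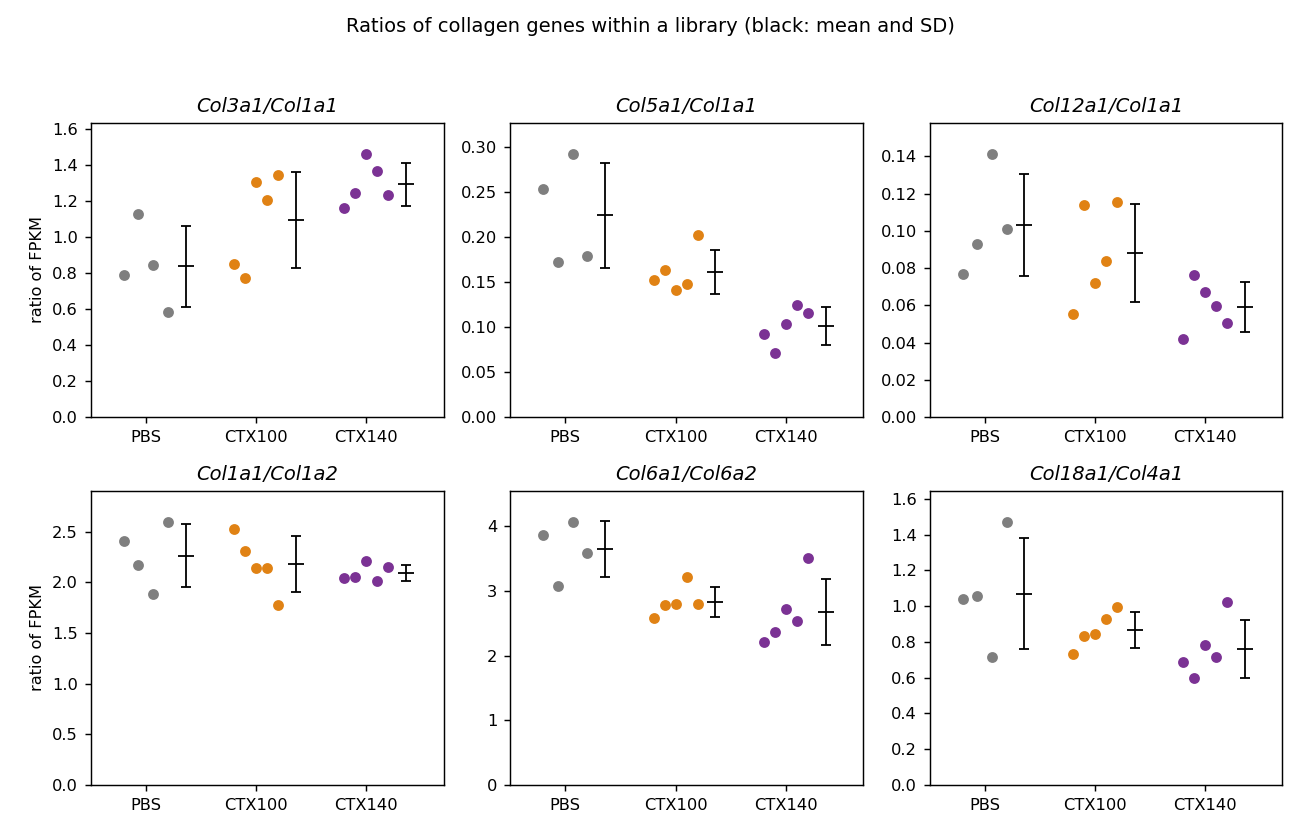
Ratio of FPKM of 6 pairs of collagen genes within each library (linear axes), with the mean and SD of each group in black. Col5a1 over Col1a1 and Col12a1 over Col1a1 are lower in every CTX140 library than in every PBS library, Col3a1 over Col1a1 is higher, and Col1a1 over Col1a2 stays between 1.77 and 2.60 in all 14 libraries.

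Several collagen genes are neighbours. Col3a1 and Col5a2 lie on opposite strands of chromosome 1, 24614 bases apart, and both were called higher in CTX140. Col6a1 and Col6a2 lie 85161 bases apart on chromosome 10 and differed in call. Col4a1 and Col4a2 run head to head on chromosome 8 with an overlap of 22 bases, and neither was called. Col6a4, Col6a5 and Col6a6 lie in a row on chromosome 9, where Col6a4 was called higher.

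Genes that make, bind, sense and break down collagen were read in 8 lists of 112 symbols. The 3 tested members of each list with the highest mean CPM are named by rule, and further members were chosen after their values were seen. The counts below for CTX140 against PBS stand beside 11.1% of all genes called higher and 10.1% lower. There, 1 or 2 called members of a list are no result about that list. In CTX140 against PBS, enzymes and chaperones of the endoplasmic reticulum had 4 of 19 tested members called higher and 2 lower (median log2 fold change -0.10). P4hb, a subunit of prolyl 4-hydroxylase (0.10 ± 0.14), and Serpinh1, the collagen chaperone HSP47 (-0.33 ± 0.18), were not called, and Pdia6 and Ppib were called lower (-0.48 ± 0.13 and -0.39 ± 0.12). Fkbp10, a prolyl isomerase of collagen folding, was at 37.8 ± 10.2 CPM in CTX140 and 17.1 ± 5.19 CPM in PBS (1.14 ± 0.22, edgeR adjusted p = 0.00248).

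Secretion and regulator genes had 2 of 9 called higher and 2 lower (median -0.11). Larp6, which binds type I collagen mRNAs (1.85 ± 0.39), and Creb3l1, a transcription factor for type I collagen in bone (1.71 ± 0.32), were higher, and the coat gene Sec23a (-0.53 ± 0.12) and Creb3l2 (-0.69 ± 0.21) lower. Sec24d and Mia3 gave -0.11 ± 0.11 each and were not called. Of 5 tested propeptide genes, the N-proteinase Adamts2 was called higher (1.69 ± 0.28, edgeR adjusted p = 0.000958) and the C-proteinase Bmp1 lower (-0.71 ± 0.14, adjusted p = 0.0033). Its enhancers Pcolce (-0.12 ± 0.11) and Pcolce2 (0.08 ± 0.15) were not called.

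Of 6 crosslinking genes, 3 lysyl oxidases were called higher (list median 0.97). Lox was at 137 ± 53.8 CPM in CTX140 and 32.6 ± 9.28 CPM in PBS (2.07 ± 0.28), with Loxl1 at 1.80 ± 0.26 and Loxl2 at 1.64 ± 0.24. Tgm2 (0.30 ± 0.17) and Loxl3 (-0.26 ± 0.10) were not called. Of 14 tested fibril surface partners, 10 were called higher and 1 lower (median 1.74). The proteoglycan gene Dcn was at 339 ± 142 CPM in CTX140 and 89.5 ± 22.3 CPM in PBS (1.92 ± 0.26), and Dpt at 64.1 ± 27.2 and 2.93 ± 2.31 CPM (4.44 ± 0.58). Sparc, a collagen-binding matricellular gene, had 0.61 ± 0.21 (edgeR adjusted p = 0.0499) and Thbs1 0.01 ± 0.28. Fn1, the fibronectin gene on whose fibres collagen assembles, was called lower, at 1888 ± 385 CPM in CTX140 and 3661 ± 1707 CPM in PBS (-0.96 ± 0.26, edgeR adjusted p = 0.0162).

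Collagen receptors had 2 of 10 called higher and 4 lower (median -0.50). Itgb1, the shared beta chain of collagen-binding integrins, was lower at 401 ± 68.2 CPM in CTX140 and 616 ± 143 CPM in PBS (-0.62 ± 0.16), as were Ddr1 (-0.60 ± 0.15), Itga2 (-0.68 ± 0.21) and Itga10 (-1.09 ± 0.37). The endocytic receptor Mrc2 (0.75 ± 0.25) and the fibroblast integrin chain Itga11 (2.28 ± 0.69) were higher, and Mrc1 and Ddr2 were not called. Degrading enzymes had 4 of 14 called higher and 1 lower (median 0.61). Mmp12 (1.19 ± 0.33), the gelatinase Mmp2 (2.19 ± 0.33), Ctsk (1.76 ± 0.53) and Fap (1.39 ± 0.26) were higher, Ctsl (-0.59 ± 0.20) was lower, and Ctsb (0.36 ± 0.30) was not called.

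Other basement membrane genes divided evenly, with 6 of 21 called higher and 6 lower (median 0.11). The laminin chains Lamb1 (-0.75 ± 0.22), Lama5 (-0.80 ± 0.21) and Lamc1 (-0.93 ± 0.22), the proteoglycan Agrn (-0.89 ± 0.19), the type IV crosslinking peroxidasin gene Pxdn (-0.56 ± 0.13) and Npnt (-1.79 ± 0.24) were lower, as Col18a1 was. Lama4, Lama3, Lamb3, Lama1, Nid1 and Smoc2 were higher, from 0.84 ± 0.29 for Nid1 to 5.04 ± 1.13 for Smoc2. In CTX100 against PBS the 8 lists held 4 called genes, Dpt (2.73 ± 0.55), Tnxb (2.27 ± 0.49) and Lamb3 (1.85 ± 0.31) higher and Npnt lower (-1.25 ± 0.23). In that comparison 1.2% of all genes tested were called higher and 0.397% lower. In CTX140 against CTX100 the 8 lists held 4, all higher: Loxl1, Dcn, Fap and Lama4. There, 0.775% of all genes tested were called higher and 0.475% lower.

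**Figure D5:**
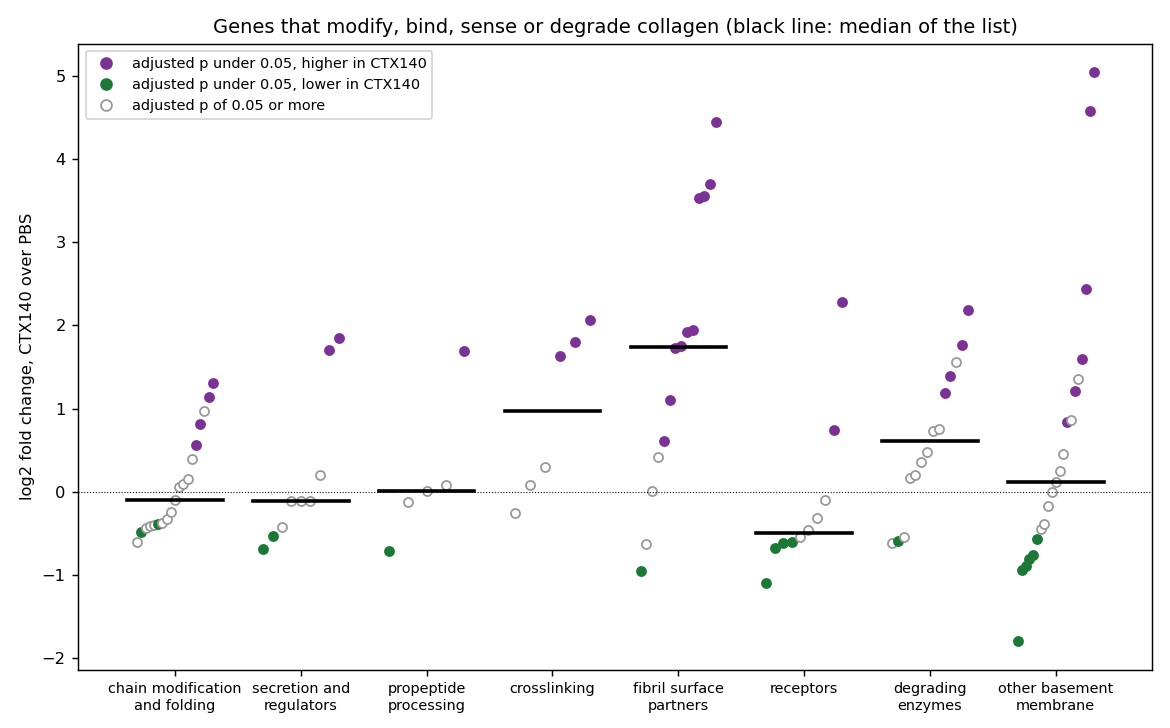
Fitted log2 fold change of CTX140 over PBS (linear axis) for each tested gene of the 8 lists, 1 point a gene, with the list median as a black line. Fibril surface partners (median 1.74) and crosslinking genes (0.97) lie mostly above 0, collagen receptors mostly below (-0.50), and other basement membrane genes on both sides (0.11).

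Markers of cell types that make or adjoin collagen were read in the same fit, where again 11.1% of all genes were called higher and 10.1% lower in CTX140 than in PBS. Of 14 fibroblast markers, none of them a collagen gene and 5 of them (Dcn, Lum, Dpt, Mmp2 and Fap) also in the lists above, 11 were called higher in CTX140 than in PBS. Their summed level was 354 to 443 CPM in PBS libraries, 517 to 655 CPM in CTX100 libraries and 625 to 1689 CPM in CTX140, and no marker was at 0. With the mean log2 CPM of these markers as a covariate, edgeR called 0 collagen genes in CTX140 against PBS (2 higher and 1 lower at an unadjusted p under 0.05) and 5 of all 15360 genes. The marker levels of these groups do not overlap (4.67 to 6.12 in CTX140, 3.16 to 3.63 in PBS), so marker level and group cannot be told apart in that fit. With the pericyte level as the covariate, 5 of the 34 collagen genes were called higher and 0 lower, against 5.81% and 4.9% of all genes. At an unadjusted p under 0.05 they numbered 11 and 1. Over the 30 genes without the 4 scarce ones, 4 and 0 were called, and 8 and 1 unadjusted. In the fit without a covariate, 2 of 10 pericyte markers were called higher. Their sums were 80.3 to 148 CPM in PBS libraries, 73.5 to 119 in CTX100 libraries and 96.3 to 192 in CTX140.

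Contractile markers had 7 of 8 called higher in CTX140 than in PBS, with sums of 35.0 to 72.5 CPM in PBS libraries, 95.3 to 121 in CTX100 libraries and 114 to 180.2 in CTX140. Adipocyte markers had 7 of 9 tested called higher, with sums of 79.6 to 144 CPM in PBS libraries, 132 to 267 in CTX100 libraries and 218 to 749.9 in CTX140. Carcinoma epithelium markers had 5 of 10 called higher, with sums of 1475 to 2301 CPM in PBS libraries, 1789 to 2173 in CTX100 libraries and 1282 to 1999 in CTX140. Blood endothelium had 1 of 10 called higher (70.8 to 174, 80.2 to 175 and 90.6 to 328 CPM in order of dose) and nerve 1 of 5. Skin keratinocyte markers had 2 of 3 tested called higher, at 3.68 to 7.72 CPM in PBS libraries, 4.35 to 11.9 in CTX100 libraries and 14.2 to 34.8 in CTX140, with Krt1 and Lor at 0 in PBS and Krt1 and Flg at 0 in CTX100. Of 3 tested cartilage and bone markers 2 were called lower, with sums of 67.1 to 140.4 CPM in PBS libraries, 57.3 to 79.1 in CTX100 libraries and 42.2 to 59.0 in CTX140 and with Sp7 at 0 in CTX140 and in PBS and Acan at 0 in CTX100. The 5 tested of 8 skeletal muscle markers stood beside a list sum of 4.46 to 13.9 CPM in PBS libraries, 7.24 to 230.7 in CTX100 libraries and 8.50 to 16.2 in CTX140. The part of these cell types in the collagen results was not tested.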

How the data were processed

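Counts per gene and FPKM (counts divided by gene length and by 1 constant per library) were used as deposited by the authors for 14 libraries of 14.4 to 19.3 in units of 1000000 counts. The submitters' processing notes name mm10 and DESeq2; for the aligner, read counter and strandedness, a name is not given in the sources used here. The deposited counts were tested with edgeR 4.0.16 (R 4.3.3; TMM factors, filterByExpr by group, robust quasi-likelihood fit) with all 14 libraries in 1 fit, and Benjamini-Hochberg adjustment over 15360 genes. Standard errors were derived from the fold change and its F value. Ratios were compared with exact permutation tests (scipy 1.17.1, Python 3.11.15). Alternatives used limma 3.58.1 and DESeq2 1.42.0. The fits were tested on simulated data. Values per library are given for the 14 tested collagen genes with the highest mean FPKM and those called lower, and from each pathway list the 3 tested members with the highest mean CPM and any called against the list's majority are named. Collagen members and all gene lists were chosen with earlier results of these data known.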

Additional observations from a re-analysis of the deposited data

Results flagged for a closer look

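Among 42 sets of a gene and a group (14 collagen genes in 3 groups), 4 held a library far from the rest of its group by Dixon's criterion; chance gives about 1 in 20. Col5a2 reached 319.8 CPM (320 when rounded) in CTX140 2, against 175 CPM in the nearest CTX140 library. Col12a1 reached 267 CPM in CTX140 2, against 115 CPM in the nearest. Col12a1 also reached 95.4 CPM in PBS 4, against 47.1 CPM in the nearest PBS library. Col8a1 reached 126 CPM in PBS 3, against 92.1 CPM in the nearest.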

How the results depend on the processing

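In CTX140 against PBS, edgeR called 16 collagen genes higher and 2 lower; leaving out 1 library each gave 13 to 20 higher and 2 lower, only the 2 groups fitted 11 higher, limma on log2(FPKM + 1) 12 and DESeq2 21. Leaving aside the 4 genes below the filter's level in every PBS library, chosen after seeing the data, gave 12 and 2. Col15a1 of the basement membrane was called higher by DESeq2, with the replicate block and without CTX140 5. The fibroblast marker covariate gave 0 and 0, and the pericyte covariate 5 and 0. Under the fibroblast covariate the log2 fold change turned to -0.49 for Col1a1, -0.19 for Col1a2, -0.13 for Col5a2, -0.79 for Col6a2 and -0.91 for Col14a1, none called. Pathway genes numbered 32 higher and 17 lower, 21 and 10 with only the 2 groups fitted, and 23 to 34 and 8 to 21 with 1 library left out (8 without PBS 3). Over all genes, the main fit called 11.1% higher and 10.1% lower, DESeq2 14.2% and 11.8%, and only the 2 groups 6.79% and 5.73%. Limma on log2(FPKM + 1) called 1491 and 1411 of 15360. With 1 library left out, all genes called higher numbered 1039 (without PBS 4) to 1970 (without PBS 2). Those lower numbered 885 (without PBS 3) to 1924 (without PBS 2).

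In CTX100 against PBS, the 1 collagen gene higher became 0 with no filter, 0 with limma on log2(FPKM + 1), 0 with the fibroblast covariate, 2 with DESeq2, 3 with only the 2 groups, and 0 to 1 with 1 library left out; DESeq2 called 1 lower. Pathway genes (3 higher, 1 lower) became 1 higher with no filter, 13 and 2 with DESeq2, 12 and 2 with only the 2 groups, and 0 to 7 and 0 to 4 with 1 library left out.

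In CTX140 against CTX100, the 3 collagen genes higher became 1 with no filter, 9 with DESeq2, 0 with either covariate, and 0 to 8 with 1 library left out (0 without CTX100 1, 8 without CTX140 5); 0 to 1 were lower. Pathway genes (4 higher, 0 lower) became 2 and 1 with no filter, 18 and 1 with DESeq2, 2 with limma on log2(FPKM + 1), 1 with limma on log2(FPKM + 0.1), and 0 to 21 and 0 to 1 with 1 library left out. Calls over all genes moved in the same fits. The main fit called 119 of 15360 genes higher and 73 lower, and DESeq2 823 and 427. Without CTX100 1 there were 1 and 0 of 15346, and without CTX140 5 684 and 323 of 15208. The cause of these shifts was not tested.

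The replicate number as a block gave 18 collagen genes higher and 2 lower in CTX140 against PBS, 1 and 0 in CTX100 against PBS, and 4 and 0 in CTX140 against CTX100; pathway genes higher numbered 7 in CTX100 against PBS and 7 in CTX140 against CTX100. Over all 15360 genes, the block fit called 1605 higher and 1222 lower, 159 and 22, and 215 and 78 in the same order of comparisons. Same-numbered libraries deviated together in 6 of 13 pairs (r over 0.1, range -0.193 to 0.431). The median r was 0.071 for same-numbered pairs and -0.014 for other pairs of libraries from different groups. Whether the numbers mark a shared animal or batch was not tested. With type IV alone as basement membrane, its share of counts was 0.0537% in PBS, 0.0568% in CTX100 and 0.0475% in CTX140. No ratio was called under any alternative run. With so few libraries the smallest exact p is large (0.0159 for 5 against 4). A call after adjustment would need several ratios to reach it together, so this does not show that the ratios were stable. The 10 collagen genes under the filter were not tested in the comparisons as reported, and the effect of depth was not tested.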
